A study of Mus musculus with 24 samples.

Results

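TEC is the Gencode label for a locus that was drawn from cDNA or EST evidence and still awaits experimental proof that it is a gene of its own. Of the 2593 TEC loci in the count table, which lists 48709 genes, 174 had 75 or more counts in every cortex library, and these 174 are described here. Of all TEC loci, 1324 had at least 1 count in every cortex library. The loci just inside the threshold were A130050O07Rik, Gm37254 inside Gpatch2, Gm38029 inside Egfem1 and Gm37941 inside Snap91, each with a lowest count of 75, and those just outside it were ENSMUSG00000102171 and Gm6934 with a lowest count of 74 and Gm44802 with 73. The loci were chosen by their counts in these same cortex libraries, so their levels are a description. At 75 counts the counting error alone is 11.55% of the count. A protein-coding gene whose annotated span held the whole locus is called its host.

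The study asked how exposure before birth to nPM, nano-sized particulate matter from urban air pollution, changed RNA in the neonatal brain and blood. Pregnant C57BL/6 dams (C57BL/6J on the labels, C57BL/6NJ in the study's methods) breathed nPM for 5 hours a day on 3 days a week, from gestational day 2 until birth, and control dams breathed filtered air. The labels give the dose as 300 mg per cubic metre, a unit that differs from the micrograms in the study's methods, and the pups' age as 3 to 5 days, where the methods give day 5. Cerebral cortex and blood were each sequenced from 12 pups, 3 per sex and exposure, with pups of each group drawn from different litters per the study's methods. Total RNA was depleted of ribosomal RNA rather than selected for poly(A), so RNA that still holds introns could enter the libraries. The labels name no altered allele and no further treatment for either group. In such bulk tissue, fewer cells of a type and less RNA per cell cannot be told apart.

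Cortex libraries held 22301409 to 33804371 counts, with an RNA integrity number (RIN) of 9.4 to 9.9. The 6 markers of cortical projection neurons fixed for this work were counted in every cortex library and summed to 2350 to 2663 CPM (counts scaled to a common library size by TMM) in nPM and 2222 to 2851 in control libraries. Of other cell types, the choroid plexus list (4 of 4 genes counted) ranged over 232 to 501 CPM in nPM and 31.2 to 391 in control cortex, the erythroid list over 209 to 557 and 241 to 543, the microglial list over 74.7 to 103 and 71.8 to 132, the striatal list over 62.5 to 76.5 and 40.6 to 99.0, and the list for hypothalamus and amygdala over 20.7 to 29.7 and 21.3 to 26.04, with no listed gene at 0 in every library. Of the last list, 2 of 6 genes had a count in every library and were tested. Lhx6 averaged 22.8 CPM in nPM and 22.1 in control libraries, and Gal 0.585 and 0.510. The sum of that list thus rests mostly on Lhx6 and does not by itself show RNA of those regions. The part of these cells in the results was not tested. Libraries V23, an nPM male, and V24, a control male, both of lane 3, stood apart in their TEC counts, so results that rest on them are given with and without them. In blood, the control female V2 held far more TEC counts than the other blood libraries. It also had 22461 genes with a count, where the others had 13254 (V8) to 17273 (V5). V2 was left out of the blood fit, as in earlier processing of these data. The study's methods also exclude 1 blood sample, not named there, for its distinct count distribution.

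A long gene is copied into one primary transcript, and its introns are removed and degraded in the nucleus. A locus lying in an intron on the strand of its host is copied as part of that primary transcript, so that counts placed there can come from the unspliced host RNA or from a separate transcript, and these cannot be told apart here. Neurons express many very long genes for adhesion, channels and synaptic scaffolds, and the introns of such genes make up most of their length.

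The last 60 bases of 6 loci are shown because a transcript with an end of its own usually carries a poly(A) signal, AATAAA or ATTAAA, shortly before that end. They come from the Gencode M21 transcripts (GRCm38) with the strand of the locus, and a match within the last 50 bases is in capitals.
2900064K03Rik: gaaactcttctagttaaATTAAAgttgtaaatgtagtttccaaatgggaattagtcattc
Gm38198: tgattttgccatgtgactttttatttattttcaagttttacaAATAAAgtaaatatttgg
Gm45176: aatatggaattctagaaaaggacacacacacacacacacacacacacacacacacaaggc
Gm44560: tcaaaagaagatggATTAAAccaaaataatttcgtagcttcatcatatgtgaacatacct
Gm37606: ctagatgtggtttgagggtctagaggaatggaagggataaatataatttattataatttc
Gm44509: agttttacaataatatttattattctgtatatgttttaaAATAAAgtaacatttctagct
The first locus lies in Kcnip4 (chr5:49515825-49515884, minus strand), the second in Adgrb3 (chr1:25735389-25735448, minus) and Gm45176 in Dlg2 (chr7:91135877-91135936, plus). Gm44560 lies inside Ube3a on the opposite strand (chr7:59286052-59286111, minus), whereas Gm37606 (chr16:77564706-77564765, plus) and Gm44509 (chr7:55973519-55973578, minus) have no protein-coding host. In Gm38198 and Gm44509 the motif AATAAA ended 12 and 15 bases before the annotated end, in 2900064K03Rik and Gm44560 ATTAAA ended 37 and 40 bases before it, and Gm45176 and Gm37606 held neither. Searched on the strand of the locus only, 1 or both motifs stood in the last 50 bases of 31.1% of the 167 members with a sequence and of 28.2% of the 2289 other TEC loci with one. The median GC content over the whole locus was 38.1% in the members and 42.5% in the other TEC loci.

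Of the 174 loci, 127 lay wholly inside a protein-coding gene, and 56 genes held them. On the annotated strands, 122 ran in the direction of the host and 5 against it. By the exons of Gencode M21, 123 of the 127 lay wholly in introns, and the other 4 touched a host exon: Gm44560 in Ube3a with 65.01% of its length, Gm43737 in Mtx1 with 27.7%, Gm38077 in Mrpl3 with 7.64% and Gm36931 in Satb1 with 3.25%. The remaining 47 had no protein-coding host. Of these, 7 overlapped the edge of a protein-coding gene, 13 lay within 10 kb of one and 27 farther away. In M21, 170 of the 174 still carried the TEC label and 2 were absent.

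The hosts were long genes. Their median span was 146.9 kb, from 18.01 to 2245 kb, beside 24.6 kb over the 15516 protein-coding genes tested. The loci gathered in few of them: 12 hosts held 3 or more members, 78 in all, 5 held 2 and 39 held 1. Kcnip4, which encodes a regulatory subunit of A-type potassium channels, held 16, and Adgrb3, an adhesion G-protein-coupled receptor of synapses, held 15. Dlg2, a postsynaptic scaffold protein, held 10, and Fam155a, a subunit of the NALCN sodium leak channel complex, held 6. Ctnna2 (a neuronal alpha-catenin) and Cntnap2 (a neurexin-family adhesion protein) held 5 each, and Ank2 (a membrane-cytoskeleton adaptor), Auts2 and Lrrtm4 (a synaptic adhesion protein) held 4 each. Gpm6a, a neuronal membrane glycoprotein, Xkr4 and Ube3a held 3 each.

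Per kb of exon or locus, the loci stood well below their hosts in most cases. The median level of the 174 loci was 2.46 CPM per kb, from 0.549 to 161, and the median locus on the host's strand reached 14.5% of the host's CPM per kb. The lowest shares belonged to Gm45264 and Gm45265 in Gpm6a, at 0.346% and 0.445%. The largest share, 623%, belonged to Gm37206 in Gm21992, a locus that a further protein-coding gene also holds. Over all TEC loci inside a gene with at least 5 CPM per kb, the 717 on the host's strand had a median of 4.27% of the host's level and the 132 on the opposite strand 0.0137%. Whether the read counting used strand was not stated, and these values give the separation between the strands as deposited.

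Among the 122 loci on the strand of the host, 48 lay in the stretch of the host nearest its start when it is cut into 3 equal lengths, 52 in the middle stretch and 22 in the last. In the 3 hosts with the most loci, the highest level per kb belonged to a locus near the start. In Kcnip4, 2900064K03Rik, 7.53 kb from the start, had 5.91 CPM per kb and Gm43829, 811 kb from it, had 1.68. In Adgrb3, Gm36952 at 30.6 kb had 5.42 CPM per kb and Gm37331 at 532 kb had 2.02. In Dlg2, Gm45176 at 43.2 kb had 6.22 CPM per kb, Gm44679 at 430 kb had 5.07, and B230206I08Rik at 1319 kb had 2.20. Levels did not fall evenly along the gene: Gm43046, 455 kb into Kcnip4, had 4.97 CPM per kb, the second highest there. Loci of the same host share its RNA, so these values are a description with no test.

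**Figure D1:**
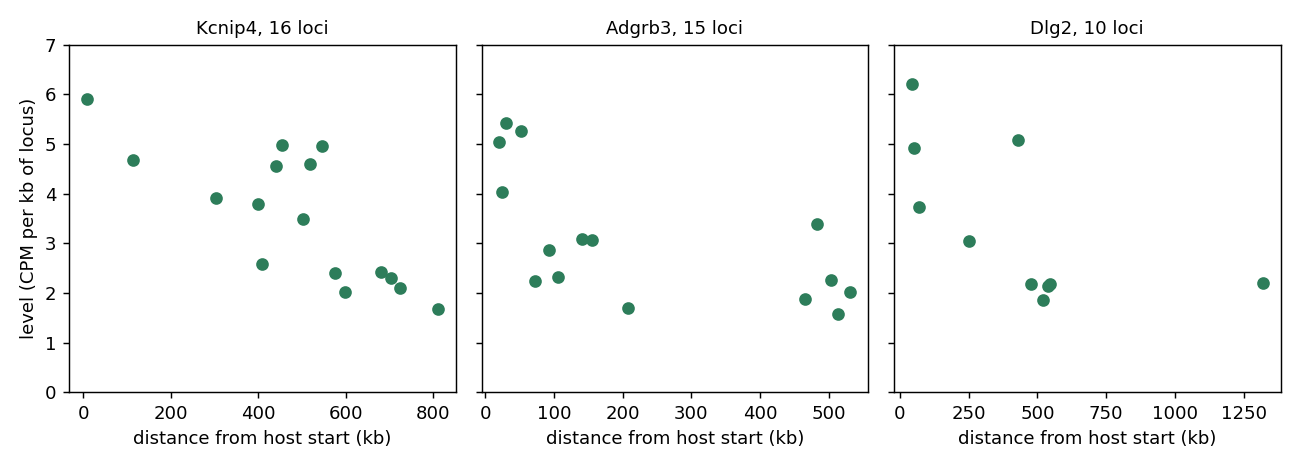
Mean level over the 12 cortex libraries (vertical axis, CPM per kb of locus) of each member against the distance of its centre from the annotated start of its host (horizontal axis, kb) in Kcnip4, Adgrb3 and Dlg2, 1 point per locus. The highest points lie within 50 kb of the start in Kcnip4 (5.91), Adgrb3 (5.42) and Dlg2 (6.22).

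The most abundant loci were mostly not intronic. 2900097C17Rik (chromosome 2, 156391831 to 156392979, minus strand; a lincRNA in M21) lay 16.2 kb from Cnbd2 and ranged over 158, 207 and 223 CPM (lowest, median and highest) in nPM and 145, 179 and 217 in control cortex. The groups overlapped over nearly their whole range. 9330162G02Rik is 30942 bases long, overlaps the edge of Ube3a on the opposite strand, and ranged over 96.9, 105 and 145 CPM in nPM and 81.9, 135 and 159 in control libraries. Gm45884 on chromosome 18, 2.90 kb from Pura, ranged over 86.4, 98.5 and 108 CPM in nPM and 84.4, 106 and 122 in control. Gm37899 on chromosome 12, near the imprinted gene Rtl1, ranged over 36.2, 37.8 and 52.6 CPM in nPM and 31.5, 50.04 and 59.2 in control. Gm44509 ranged over 38.8, 40.7 and 42.8 CPM in nPM and 38.3, 39.8 and 43.6 in control, the tightest of these 5. Gm45176, the most abundant locus with a host, ranged over 17.2, 21.6 and 28.7 CPM in nPM and 15.6, 30.2 and 38.0 in control. In all 6 the lowest control library lay below the lowest nPM library.

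Most of the 174 loci were lower in nPM cortex, but few passed a threshold. The edgeR quasi-likelihood test, fitted on all 20857 genes with at least 1 count in every cortex library and adjusted for sex and RIN, gave a log2 fold change (nPM over control) below 0 for 158 loci and above 0 for 16, with a median of -0.23, where the median of all genes was -0.0024. At the unadjusted p of 0.005 used by the study, 2 of the 174 were lower and none was higher, beside 0.614% of all genes in either direction and 0.264% lower. At an unadjusted p of 0.05, 19 loci were lower and 0 higher, beside 2.94% of all genes lower and 5.67% in either direction. No locus passed an adjusted p of 0.05 with edgeR, limma voom or DESeq2 (lowest adjusted p 0.635, 0.627 and 0.173), where 0.0144% of all genes did with edgeR. At an unadjusted p of 0.05, voom placed 20 loci and DESeq2 23 below control, beside 633 and 500 of the 20857 genes. When genes with at least 1 count in any library were kept, edgeR called 38 loci at 0.005, beside 526 of the 32461 genes then tested. At an adjusted p of 0.05 it then called 14 loci, beside 0.57% of those genes.

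The 2 loci past 0.005 had no protein-coding host. Gm37606 (chromosome 16, 77561650 to 77564765) lies inside Mir99ahg, a noncoding RNA that carries the miR-99a and let-7c hairpins, and measured 3.05, 3.51 and 4.197 CPM in nPM and 3.69, 4.98 and 6.85 in control cortex. In 5 of the 6 nPM libraries it lay below the lowest control library. Its log2 fold change was -0.45 ± 0.12 (SE, edgeR unadjusted p = 0.00176, adjusted p = 0.635), and the exact permutation test of the 6 against 6 libraries gave p = 0.0152. The edgeR call at 0.005 was lost in lane 2 alone, and its unadjusted p ran from 0.000919 to 0.0101 when 1 library at a time was left out. Gm37593 (chromosome 17, 51842861 to 51846114) starts 9.57 kb upstream of Satb1, a chromatin organizer of cortical interneurons and T cells, and measured 6.90, 8.72 and 9.24 CPM in nPM and 8.16, 10.9 and 12.3 in control. Only 2 nPM libraries lay below the lowest control library, and the log2 fold change was -0.34 ± 0.10 (SE, edgeR unadjusted p = 0.00484, adjusted p = 0.807). Its call at 0.005 was lost in the voom fit, with RLE size factors, with at least 10 counts required and with lane added, and the edgeR p ran from 0.000656 to 0.0197 when 1 library at a time was left out.

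The next 6 by p for exposure were Gm37717 inside the noncoding gene Gm28928 and 5 loci of Kcnip4 and Adgrb3. In Kcnip4, 2900064K03Rik measured 12.9, 15.2 and 20.8 CPM in nPM and 14.8, 21.7 and 24.2 in control, with a log2 fold change of -0.39 ± 0.13 (SE, edgeR unadjusted p = 0.00854, adjusted p = 0.844). Gm43046 measured 7.89, 9.47 and 14.6 CPM against 8.37, 15.4 and 17.3, and Gm42768 measured 7.72, 11.6 and 13.7 against 9.48, 15.6 and 19.3. In Adgrb3, Gm37331 measured 4.08, 5.90 and 6.63 CPM against 4.22, 8.27 and 10.8, and Gm38198 measured 6.82, 8.12 and 11.2 against 6.28, 13.4 and 14.1. Gm37717 measured 5.31, 7.60 and 9.91 CPM against 5.85, 11.9 and 14.2 and had the most negative log2 fold change of all members, -0.53 ± 0.19 (SE, edgeR unadjusted p = 0.0156). In each of these 6 the nPM and control ranges overlapped, and the control library with the lowest value lay well under the control median.

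The hosts moved less than the loci they hold. The median log2 fold change of the 56 hosts was -0.026, with 36 below 0. None passed 0.005. Of the 56, 4 passed an unadjusted edgeR p of 0.05, all lower, beside 2.94% of all genes lower and 5.67% in either direction. They were Garnl3 (-0.11, edgeR unadjusted p = 0.0159), Kcnip4 (-0.16, edgeR unadjusted p = 0.024), R3hdm1 (-0.21, edgeR unadjusted p = 0.0341) and Dlg2 (-0.12, edgeR unadjusted p = 0.0443), with adjusted p of 0.844 or more. Kcnip4 itself measured 36.2, 42.2 and 45.6 CPM in nPM and 39.3, 45.4 and 51.4 in control cortex. Dlg2 measured 443, 473 and 509 CPM in nPM and 468, 513 and 563 in control. In 122 of the 127 pairs the locus had the lower fold change of the pair. Over the libraries of 1 group, the median SD of the log2 level was 0.352 for the loci and 0.0788 for the hosts, so the loci also varied more within groups. For the TEC loci below the threshold it was 0.505.

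**Figure D2:**
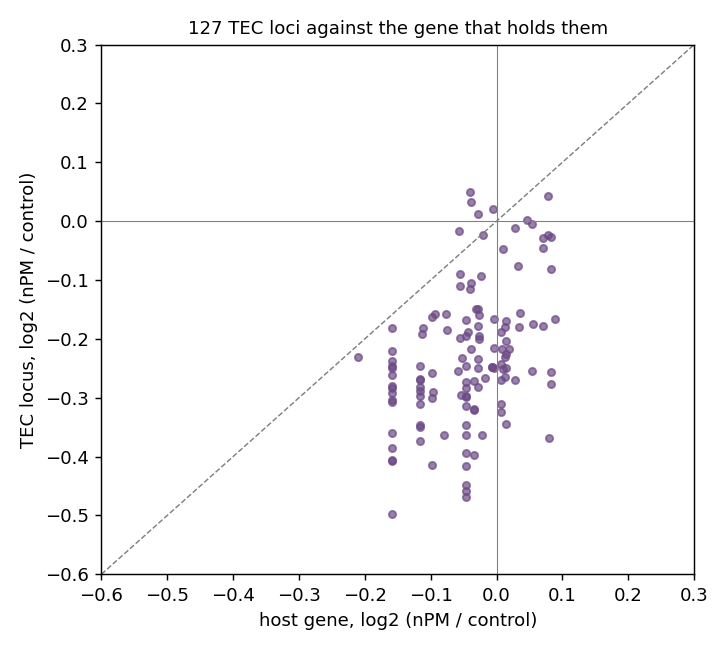
Log2 fold change of nPM over control of each of the 127 members with a host (vertical axis) against that of its host (horizontal axis), on the edgeR scale, 1 point per locus. The dashed line marks equal change, 122 points lie below it, and loci of the same host share a horizontal position.

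Set against the host directly, no locus passed an unadjusted p of 0.05 in the limma fit, and 6 did in the alternative with edgeR. The limma fit of log2 of the locus count over the host count, run over the 2244 noncoding features nested in a protein-coding gene, gave a median nPM-minus-control difference of -0.18 for the 127 pairs, beside -0.12 over all nested features, with 122 below 0. The lowest limma p was 0.0598, beside 4.5% of all pairs. When edgeR was run on the locus counts with the host count as offset, 6 loci passed 0.05, all lower, beside 4.32% of all pairs, and none passed an adjusted p of 0.05. The smallest p belonged to Gm44441, inside Chl1, a cell adhesion protein of the L1 family. As a percent of Chl1's level per kb it stood at 1.16, 1.78 and 2.33 in nPM and 1.68, 2.46 and 3.19 in control libraries, a log2 difference of -0.44 ± 0.21 (SE, limma unadjusted p = 0.0598, adjusted p = 0.958), where Chl1 itself changed by 0.08 ± 0.07 (SE). The exact permutation test of the ratio gave p = 0.0368 for Gm44441 and p = 0.0173, the lowest of the 127 pairs, for Gm42991 in Auts2, neither adjusted for the number of pairs.

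The other 7 smallest p for the ratio fell to 4 loci of Adgrb3 and to 1 each of Auts2, Ank2 and Lrrtm4. Gm42991 stood at 47.9, 59.9 and 66.3% of Auts2 per kb in nPM and 56.0, 76.0 and 86.9% in control (log2 difference -0.35 ± 0.20, SE). Gm37331 stood at 8.13, 11.5 and 12.2% of Adgrb3 in nPM and 8.56, 15.2 and 20.3% in control, and Gm38198 at 11.9, 15.1 and 19.3% against 12.01, 22.3 and 26.2%. Gm37862 and 8030445P17Rik, also in Adgrb3, had log2 differences of -0.39 and -0.36. C230031I18Rik in Ank2 stood at 3.32, 3.51 and 5.03% against 3.56, 4.75 and 5.96%, and Gm44240 in Lrrtm4 at 13.1, 16.1 and 20.8% against 16.9, 20.8 and 23.4%. The limma p of these 7 ran up to 0.179, and the control libraries spread over a wider range of shares than the nPM libraries for all of the 7 but Gm44240. With V23 and V24 left out, 72 of the 127 ratios passed an unadjusted limma p of 0.05, all lower, beside 20.1% of all pairs. Of these ratios, 0 passed an adjusted p of 0.05. V23 and V24 were left out for their own TEC counts, which enter the ratio, so this rise follows from that choice and is a description.

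The 12 hosts with 3 or more members showed the same arrangement. The median log2 fold change of their loci ran from -0.32 in Lrrtm4 and -0.31 in Adgrb3 to -0.17 in Auts2, and in 11 of the 12 every locus was below 0. Fam155a, with 5 of 6, was the exception. Summed over its 16 loci, Kcnip4 had 106, 122 and 173 CPM in nPM and 99.5, 175 and 202 in control cortex. The 15 loci of Adgrb3 summed to 117, 131 and 178 CPM in nPM and 93.4, 187 and 216 in control, where Adgrb3 itself changed by -0.05 ± 0.05 (SE). The 10 loci of Dlg2 summed to 75.8, 85.0 and 120 CPM in nPM and 63.0, 122 and 145 in control. The highest nPM library and the lowest control library crossed in each of the 3 hosts. Of the 78 loci, 12 passed an unadjusted p of 0.05 for exposure, all lower, beside 2.94% of all genes lower: 4 in Kcnip4, 4 in Adgrb3, 2 in Lrrtm4 and 1 each in Dlg2 and Ank2.

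Loci on the other strand and loci without a host also leaned lower. The median log2 fold change was -0.25 over the 122 loci on the host's strand (116 below 0), -0.17 over the 5 on the opposite strand (5 below 0) and -0.15 over the 47 without a host (37 below 0). Ube3a, a ubiquitin ligase that neurons express from the maternal allele, is opposed by the long noncoding RNA Snhg14 on the paternal allele. The 3 loci inside Ube3a all run against it. Gm44560 measured 17.5, 21.1 and 27.4 CPM in nPM and 14.2, 26.8 and 29.6 in control, Gm44559 measured 6.04, 7.34 and 9.85 against 6.00, 9.21 and 10.8, and Gm44562 measured 4.69, 5.97 and 7.75 against 3.48, 7.42 and 10.03. Their fold changes of -0.17, -0.25 and -0.22 did not pass an unadjusted p of 0.05, and Ube3a itself stood at -0.0042 ± 0.0445 (SE). Farther along, A230103L15Rik and Gm44831, both within Snhg14, had log2 fold changes of -0.31 and -0.22. The opposite-strand loci in Dnajc19 (Gm43668) and Mtx1 (Gm43737) had -0.076 and -0.046.

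The values by library showed a pattern that the fold changes over all 12 libraries do not. Most loci moved together from library to library. V24, a control male, was the lowest of the 12 libraries at 114 of the 174 loci, V10, a control female, the highest at 65, and V19, a control female, the highest at 52. The median deviation from the locus mean was -0.58 on the log2 scale in V24 and 0.26 in V23, an nPM male, and reached 0.43 in V10. Across the hosts the same medians stayed between -0.053 and 0.071. The TEC loci under the threshold moved with the members, with medians of -0.48 in V24 and 0.29 in V23.

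**Figure D3:**
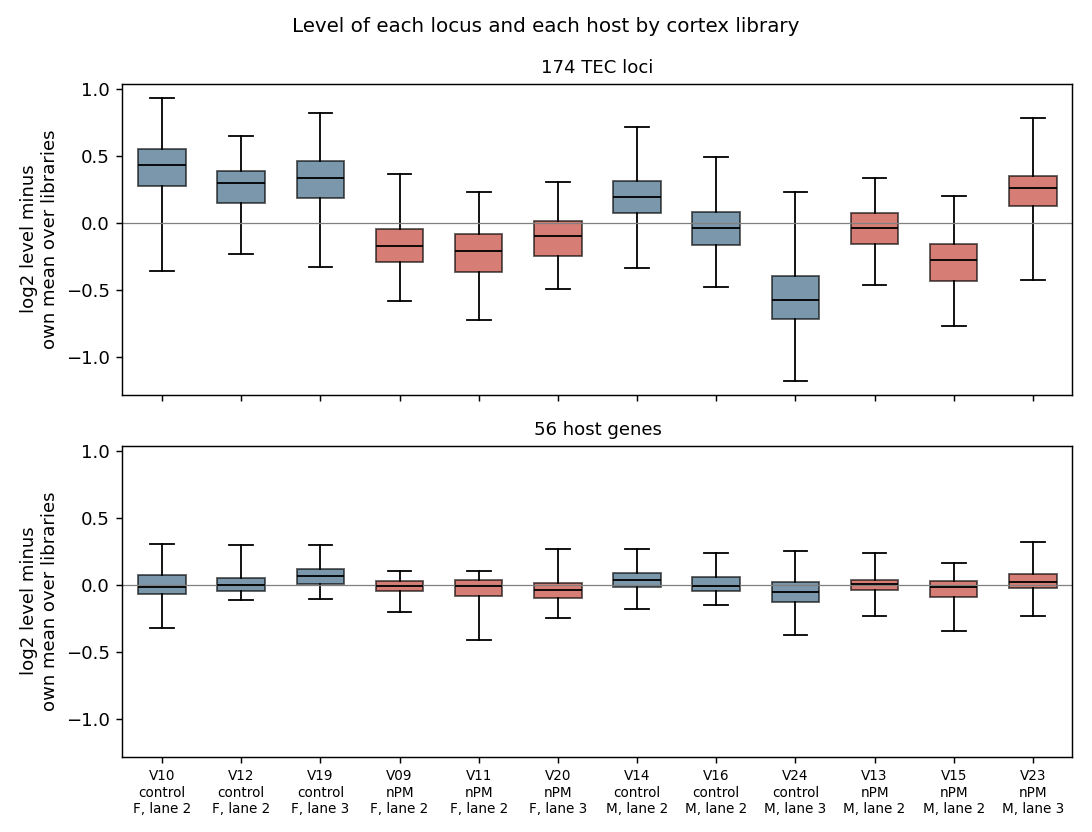
Log2 normalized level of each locus (upper panel, 174 loci) and each host (lower panel, 56 genes) minus its own mean over the 12 cortex libraries, as boxes over loci or hosts (box, middle quartiles with the median line, whiskers to the lowest and highest). Red boxes are nPM and blue boxes control libraries, ordered by sex, and the loci sit lowest in V24 (-0.58) and highest in V10 (0.43).

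All TEC loci together took 0.264, 0.290 and 0.363% of cortex counts in nPM and 0.224, 0.354 and 0.406% in control libraries (lowest, median and highest). The mean difference of -0.0398 percentage points did not pass the exact two-sided permutation test (p = 0.203, n = 6 and 6), and V23 and V24 were the extremes that made the groups overlap. Among females the groups did not overlap, with 0.273 to 0.294% in nPM and 0.369 to 0.406% in control (exact permutation p = 0.1, the smallest that 3 against 3 allow). Among males they overlapped, with 0.264 to 0.363% in nPM and 0.224 to 0.338% in control (exact permutation p = 0.8). Lane 2 held 2 libraries per sex and exposure. There all 4 nPM libraries lay below all 4 control libraries (0.264 to 0.296% and 0.301 to 0.406%). Lane 2 alone was chosen after the data were seen and holds neither V23 nor V24, so no p is given for it. Lane 3, with V19, V20, V23 and V24, gave 0.294 and 0.363% in nPM and 0.224 and 0.378% in control, so 2 against 2 libraries crossed. With 1 library at a time left out, the exact permutation p ran from 0.026 (without V24, the lowest control library) to 0.392 (without V10). The next lowest exact permutation p was 0.113 (without V23). Without V24 the difference over both lanes was -0.0623 points, and without V23 and V24 it was -0.0756 points with no overlap. That pair was left out for its own TEC shares, which fixes the separation, so no p is given for it. These p-values measure the spread between pups, 3 per sex and exposure.

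**Figure D4:**
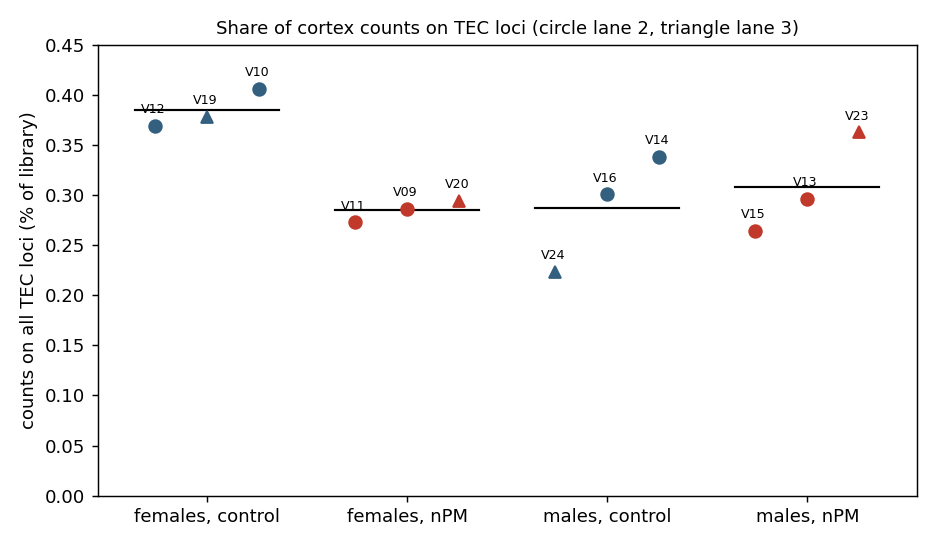
Percent of each cortex library's counts that fell on all TEC loci (vertical axis, from 0), by sex and exposure, 1 point per library with its name, circles for lane 2 and triangles for lane 3, and a bar at the mean of 3. In females the nPM points lie at 0.273 to 0.294% and the control points at 0.369 to 0.406%, whereas V23 (0.363%) and V24 (0.224%) cross in males.

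By sex, the loci were lower in nPM females and not in nPM males. In the interaction model, in which the sexes have effects of their own, the female effect had a median of -0.55, with 161 of 174 loci below 0, and the male effect a median of 0.10, with 127 above 0. In females, 37 loci were lower at an unadjusted p of 0.005, beside 1.27% of all genes lower, and 1 was higher. In males, 0 passed 0.005 in edgeR, beside 0.336% of all genes, and 5 passed 0.05, all higher, beside 4.56%. For 143 of the 174 loci all 3 nPM females lay below all 3 control females, beside 11.5% of all genes, and the same held for 10 of the 56 hosts. In males it held for 2 loci, beside 4.88% of all genes. In lane 2 all 4 nPM libraries lay below all 4 control libraries at 54 loci, beside 3.48% of all genes, and over all 12 libraries at 0 loci, beside 0.0671%.

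The difference between the sexes was tested by the interaction term, the male minus the female effect. Its median over the loci was 0.66, 18 were higher and 1 lower at an unadjusted p of 0.005, beside 1.35% of all genes in either direction and 0.743% higher, and 87 passed 0.05, beside 9.68% of all genes. None passed an adjusted p of 0.05 with edgeR (lowest 0.303) or voom (lowest 0.322), and 6 did with DESeq2, beside 0.24% of all genes. Gm42583, inside Kcnd2, the A-type potassium channel gene whose protein Kcnip4 binds, had the smallest p. It measured 12.9, 13.6 and 16.8 CPM in nPM and 9.76, 18.6 and 23.8 in control, with -0.71 ± 0.14 in females and 0.23 ± 0.15 in males (log2, SE), a difference of 0.94 ± 0.21 (SE, edgeR unadjusted p = 0.000489). Gm43321 in Kcnip4 had -0.96 ± 0.20 in females and 0.33 ± 0.20 in males (unadjusted p of the edgeR interaction 0.000511). The interaction was below 0 at 15 of the 174 loci. The one of these past 0.005 was 2900097C17Rik, 0.46 ± 0.11 in females and -0.15 ± 0.11 in males (unadjusted p of the edgeR interaction 0.00196).

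**Figure D5:**
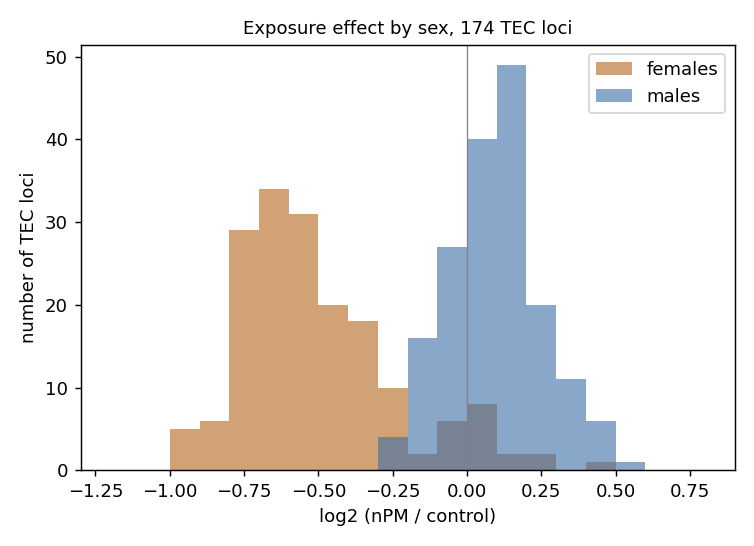
Number of the 174 TEC loci (vertical axis) by their log2 fold change of nPM over control (horizontal axis) in females and in males, from the edgeR interaction model with all 12 cortex libraries. The female distribution centres on -0.55 and the male one on 0.10, and the male one moved to -0.31 when V23 and V24 were left out.

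The sex difference and the small number of calls both turned on V23 and V24. With both left out, a choice made from the TEC counts themselves so that its counts of calls are a description, 110 loci were lower at an unadjusted p of 0.005, beside 2.86% of all genes lower, and 64 passed an adjusted p of 0.05, beside 1.07% of all genes. The median fold change was then -0.46. The male effect fell from a median of 0.10 to -0.31, 14 loci were lower in males at 0.005, beside 0.932% of all genes, and 95 in females, beside 2.36%. The interaction then passed 0.005 at 1 locus, beside 1.02% of all genes, with a median of 0.18. Lane 2 alone, 8 libraries by the labels, also holds neither V23 nor V24, so it is no separate check on leaving them out. It was chosen after the data were seen, and its counts of calls are likewise a description. In lane 2, 79 loci were lower at 0.005, beside 2.14% of all genes lower, and 19 passed an adjusted p of 0.05. The mean log2 difference within lane 2 had a median of -0.42 over the loci, and within lane 3 a median of 0.16. What sets V23 and V24 apart was not tested. Their RIN of 9.6 and 9.5 and their totals of 30959787 and 33179851 counts lay within the range of the other libraries. The mitochondrial share of counts was 7.94% in V24, the highest of the 12 libraries, and 7.41% in V23. V24 also had the highest summed microglial level of the 12 libraries (132 CPM), and V23 the lowest choroid plexus level among nPM libraries (232 CPM). The erythroid level did not separate the 2: it was 543 CPM in V24, the highest control value, and 538 in V23, where nPM libraries reached 557.

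The shift was not particular to the well-counted loci. The other 906 tested TEC loci inside a protein-coding gene centred on -0.18 on the log2 scale (707 below 0), and the 173 nested features of the sense_intronic class on -0.17 (132 below 0). Nested antisense features had a median of -0.053 (176), lincRNAs -0.031 (53), processed pseudogenes -0.030 (447) and processed transcripts -0.12 (52). A list of 10 long RNAs was drawn up as nuclear-retained: Malat1, Neat1, Meg3, Miat, Rian, Mirg, Snhg11, Kcnq1ot1, Pvt1 and Gas5. Where each of them lies in the cell was not measured. Its median was -0.20 with 10 of 10 below 0, the least in Gas5 (-0.018, edgeR unadjusted p = 0.736). Of the 10, 2 passed an unadjusted edgeR p of 0.05, both lower, beside 2.94% of all genes lower. They were Neat1, the scaffold of paraspeckles (-0.29, edgeR unadjusted p = 0.00851), and Mirg, of the imprinted Dlk1-Meg3 region (-0.23, edgeR unadjusted p = 0.0222). Malat1, of nuclear speckles, stood at -0.20 (edgeR unadjusted p = 0.0735), and the summed level of the list was 9054 CPM in V23 and 6441 in V24, the highest nPM and the lowest control value. With the threshold at 50 counts 276 loci had a median of -0.22, and at 100 counts 120 loci had a median of -0.22.

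In blood the loci, chosen by their cortex counts, were nearly silent. The 2 hosts with the most loci were low there too. Scaled to library totals with V2 included, Kcnip4 averaged 0.0557 CPM and Adgrb3 0.414, whereas other hosts were higher, such as Pcmtd1 at 16.1. Of the 174, 11 had a count in every blood library and 3 had none in any. The members together took 102 to 752 counts in the other 11 blood libraries and 6731 in V2. 2900097C17Rik, with the highest mean level over the 12 blood libraries, measured 0.297 to 1.14 CPM in those 11 and 15.5 in V2, and Gm45884 measured 0.0540 to 1.46 CPM and 15.5 in V2. Gm45223, inside Picalm, a clathrin assembly protein, measured 0.886, 1.06 and 1.75 CPM in nPM and 0.396, 0.494 and 1.05 in control blood, a log2 fold change of 0.76 ± 0.33 (SE, edgeR unadjusted p = 0.0307, adjusted p = 0.9996). That locus and Gm45884 (1.19 ± 0.56, edgeR unadjusted p = 0.0478) were the 2 of the 11 tested that passed 0.05, both higher in nPM, beside 3.11% of all genes. With V2 in the fit, 0 passed. Outside V2 the 11 tested loci held 1 to 56 counts per library, so differences in blood were measured far less precisely than in cortex.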

How the data were processed

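RNA of cortex and blood from 12 pups per tissue was sequenced by Illumina HiSeq after ribosomal depletion (RiboZero Gold). Per the labels and the study's methods, the authors trimmed reads with Trimmomatic, checked them with FastQC, aligned them with HISAT2 to mm10 (GRCm38) and counted them per gene with featureCounts 1.5.0-p3; the deposited table holds raw counts for 48709 genes. The strand setting of the counting was not given in the sources used here. The deposited gene map gave type, position and an authors' mean RPKM, which was not used.

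Counts were tested with edgeR 4.0.16 (R 4.3.3; quasi-likelihood, TMM) over the genes counted at least once in each cortex library, with exposure, sex and RIN as terms; the study's cutoff is an unadjusted p of 0.005. Adjusted p are Benjamini-Hochberg over all genes tested. Exposure by sex was a second model. Locus-to-host ratios were tested with limma 3.58.1 on log2((locus + 0.5)/(host + 0.5)). Shares were compared by exact two-sided permutation. CPM were computed here with TMM scaling. Blood was fitted without V2. Alternatives were limma voom, DESeq2 1.42.0, RLE factors, other filters, no RIN, lane, each library left out and, chosen after seeing the data, V23 and V24 left out, lane 2 alone and effects by sex. Scripts were tested on simulated counts. No 2 libraries of a group agreed within sampling noise.

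The members and lists were chosen with earlier results of these data known. Named loci were the 8 with the smallest p for exposure, the 8 with the smallest ratio p, the 6 with the highest cortex and the 3 with the highest blood CPM, the 3 just inside (4 tied) and 3 just outside the threshold, the 2 with the smallest interaction p, members of hosts holding 3 or more, and their hosts. Loci outside this rule (the remaining exon-touching, opposite-strand and Snhg14 loci, Gm37206 and the hosts Garnl3 and R3hdm1) were named after their values were seen.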

Additional observations from a re-analysis of the deposited data

Results flagged for a closer look

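In groups of 6 libraries, a library whose gap to its nearest neighbour exceeded Dixon's 95% critical share of the group's range was singled out, which chance gives in about 5% of groups (58 groups were examined, so a few are expected from chance). In nPM cortex, V23 was singled out for its TEC share of 0.363% of counts, and for Gm43046 at 14.6 CPM, 9330162G02Rik at 145 CPM and Gm37899 at 52.6 CPM, each the highest nPM value. In blood, the control female V2 had a TEC share of 0.153%, and the nPM male V5, at 0.0145%, had the highest share among nPM blood libraries.

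Of the 27 named loci screened, 3 passed an unadjusted p of 0.005 for a difference between the sexes. Of all 174 loci 19 did, beside 1.35% of all genes. Gm42583 and Gm43321 were among the 27 because they had the smallest interaction p, so their passing followed from that choice. The exposure effect differed in the edgeR interaction test (male minus female, log2): Gm43321 by 1.29, Gm42583 by 0.94 and 2900097C17Rik by -0.61, all with an adjusted p above 0.05. What sets these libraries and loci apart was not tested.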

How the results depend on the processing

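No paired analysis was possible because the labels give no replicate numbers, and numbers in accession order pair no samples. The 2 loci past an unadjusted p of 0.005 for exposure became 1 with voom, RLE factors, at least 10 counts or lane added, 4 with DESeq2, 38 (37 lower) with at least 1 count in any library, 110 without V23 and V24 and 79 in lane 2 alone. At 0.05 the last 3 settings gave 89, 139 and 122, and under an adjusted p of 0.05 14, 64 and 19. Of the 56 hosts, 11 passed 0.05 without V23 and V24, beside 3071 of 21026 genes. In lane 2, 12 hosts passed, beside 2741 of 21289 genes. Lane 2 holds neither V23 nor V24, and both settings were chosen after the data were seen, so their counts are a description. Ratios past 0.05 numbered 6 with the host offset, 1 with at least 10 counts, 1 without RIN and 72 without V23 and V24. Over all pairs the same settings called 97 of 2244, 51 of 1077, 107 of 2244 and 456 of 2264. The interaction passed 0.005 at 34 loci with DESeq2, beside 339 of 20857 genes. It passed at 1 locus without V23 and V24, beside 214 of 21026 genes, and its median there was 0.18. Without V23 and V24, 95 loci were lower in females and 14 in males at 0.005, beside 496 and 196 of 21026 genes. The male median turned to -0.31. The TEC share differed by -0.0737 points in lane 2 and by -0.0756 without V23 and V24. With V2 in the blood fit 0 loci passed 0.05, and 2900097C17Rik turned to -0.17 there, as Gm44509 did to -0.0065 in cortex lane 2. The cause was not tested.

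With 1 library left out at a time, loci past 0.005 ranged from 0 (without V09, among others) to 34 without V24, with 22 without V23. Beside these, 120 of 20944 genes passed without V09, 287 of 20963 without V24 and 315 of 20911 without V23. Loci past 0.05 ranged from 6 without V10 to 111 without V24, beside 1005 of 20935 and 1862 of 20963 genes. The median fold change stayed between -0.37 and -0.16. Hosts past 0.05 ranged from 1 without V11 to 6 without V23, beside 713 of 20957 and 2247 of 20911 genes. Ratios past 0.05 ranged from 0 to 16 without V24, where 218 of 2259 pairs passed. Interaction calls at 0.005 ranged from 4 without V23 to 68 without V14, beside 159 of 20911 and 338 of 20980 genes. The TEC share difference ranged from -0.0623 to -0.0257. Gm44509 ranged from -0.0011 to 0.039 and Gm37254 from -0.23 to 0.0049, each turning sign once. At the threshold of 75 counts, counting error alone is 11.55% of the count.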
